A study of Mus musculus with 14 samples.

Results

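The interval described here is a 540 kb stretch of mouse chromosome 9, from 99.9 Mb to 100.44 Mb in GRCm38, between the gene Sox14 and a contact viewpoint called the CTCF bait. Its members were the restriction fragment ends in this stretch that were joined to a bait in any of 14 UMI-4C libraries, leaving out ends within 10 kb of the bait itself. They came to 2169 of the 116782 distinct ends listed over all libraries, and to 84.5% of the 2566 ends that the 1283 GATC sites of the interval allow. Of these, 685 were seen from all 3 baits, 964 from 2 baits and 520 from 1 bait.

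UMI-4C counts the ligation products between 1 chosen site, the bait, and the rest of the genome, and collapses PCR copies by the sheared end of each molecule, the unique molecular identifier (UMI). Contacts fall with distance along a chromosome, and more steeply across the borders of topologically associating domains, stretches inside which DNA meets more often than across their ends. Cohesin, of which Stag1 encodes a subunit, forms loops between sites bound by the zinc finger protein CTCF, and such sites often lie at domain borders. Sox14 encodes a transcription factor of the developing nervous system, and Il20rb a receptor subunit for cytokines of the interleukin family.

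The cells were untreated ESC, embryonic stem cells of the mouse kept naive in 2i-LIF medium, and untreated NSC, neural stem cells grown in EGF/FGF medium. Contacts of 3 baits at the Stag1 locus were compared between these cell types. Nanog bait 1 had 4 libraries from ESC and 3 from NSC, Nanog bait 2 had 3 from ESC and 1 from NSC, and the CTCF bait had 2 from ESC and 1 from NSC. Bait 1 (position 100619989) and bait 2 (100641698) lie in introns of Stag1 and look at the interval from the far side of the CTCF bait (100455377), which is between the interval and Il20rb. The labels leave the words Nanog and CTCF in the bait names unexplained. They do not say whether libraries came from separate cultures either, so the p-values below measure only the spread between these samples, which may be technical.

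The bait ends are shown because every value below is a contact with 1 of them, with 30 bases of GRCm38 on the plus strand around the cutting site and the GATC site in capitals. The coordinates are chr9:100619974-100620003 for bait 1, chr9:100641684-100641713 for bait 2 and chr9:100455363-100455392 for the CTCF bait.
Bait 1: caagtactgcgctGATCcacttcctgttgg
Bait 2: ggttggactgtagGATCtaaaacacaaaaa
CTCF bait: cagcatagactttGATCtgcagccatgggt

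Next come the ends with the most UMIs in the interval, ranked by the sum over the samples of a bait, in which deeper libraries weigh more, chr9:100439324-100439353 (position 100439339, the leading end from bait 1 and from the CTCF bait), chr9:100435529-100435558 (100435543, in the leading 3 from bait 2 and the CTCF bait) and chr9:100407215-100407244 (100407230, the leading end from bait 2).
End 100439339: cccatccttggatGATCctgagctgttaac
End 100435543: aagaccatagttgGATCttatatcccatgg
End 100407230: atcaacccaacagGATCtttcagccactgg

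The leading ends lay in the last 2 windows of 20 kb and carried few UMIs each. From bait 1, end 100439339 had 3, 1, 1 and 3 UMIs in ESC replicates 1 to 4 and 2, 3 and 2 UMIs in NSC replicates 1 to 3. From the CTCF bait, 16038 bp away, it had 23 and 1 UMIs in the ESC libraries and 5 in the NSC library. End 100435543 had 17 and 4 UMIs in ESC and 7 in NSC from the CTCF bait, and 2, 0 and 2 UMIs in ESC and 2 in NSC from bait 2. End 100407230 had 1, 1 and 3 UMIs in ESC and 2 in NSC from bait 2. The other leading ends were 100419505 from bait 1 (6, 0, 1 and 6 UMIs in ESC and 0, 2 and 0 in NSC), 100437948 from bait 1 (3, 0, 0 and 3, and 3, 2 and 3), 100434711 from bait 2 (2, 2 and 2, and 0) and 100437451 from the CTCF bait (17 and 2, and 9). No single end therefore carried the counts of the interval, and all comparisons below were made on sums over windows.

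The interval holds few genes. The annotation (GENCODE M21) places 7 genes in it and 0 of them are protein-coding, and together they cover 4.51% of its length. They are the small nucleolar RNA Gm23594 (99943709 to 99943842), the processed pseudogenes Gm8641 (99946564 to 99947389) and Gm28267 (100404495 to 100404759), the long intergenic RNAs 4930519F24Rik (100022300 to 100034672), Gm28167 (100321611 to 100323524) and Gm34397 (100384202 to 100391907), and the transcript 4930540E01Rik (100173001 to 100174146), which awaits experimental evidence. Sox14 ends 23831 bp before the interval, and the 3′ end of Il20rb lies 17719 bp after it. Base composition was near that of the chromosome, with 41.8% G and C against 42.7%, 47.5 against 49.9 GATC sites per 20 kb and 29.7% against 32.0% repeat-masked sequence.

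The libraries held 7172 to 51412 UMIs, of which 3221 to 24766 fell between 10 kb and 1 Mb from the bait, called the region here, and 155 to 4718 in the interval. At these depths 3 UMIs were 0.0121% to 0.0931% of the region. Of the ends in the interval, 35.4% to 95.3% per library carried 1 UMI. Among the bait 1 libraries, replicates 1 and 4 of ESC, replicates 2 and 3 of ESC and replicates 1 and 3 of NSC shared pairwise 82.6% to 85.7% of their ends on other chromosomes, against at most 0.641% for unrelated libraries, so each pair was averaged and counted as 1 sample. Bait 1 thus had n = 2 in each cell type and the 14 libraries gave 11 samples. These are not fully independent, since a further 9 pairs, most of an ESC with an NSC library, shared 1.92% to 12.9%, and the permutation tests below treat them as independent. By these links bait 1 fell into a first batch (ESC 1 and 4 with NSC 1 and 3) and a second batch (ESC 2 and 3 with NSC 2), and the NSC library of each other bait was tied most closely to its ESC replicate 1.

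The interval took a smaller part of the contacts from the Stag1 baits in ESC than in NSC, when the region served as the denominator. From bait 1, ESC replicates 1 to 4 had 9.23%, 7.36%, 8.26% and 9.08% of their region UMIs in the interval, and NSC replicates 1 to 3 had 11.1%, 12.5% and 10.8%. All ESC libraries lay below all NSC libraries. Over samples the ESC mean was 8.48% ± 0.954 (SD, n = 2) and the NSC mean 11.7% ± 1.14 (SD, n = 2), a difference (ESC minus NSC) of -3.25 percentage points with a two-sided exact permutation p of 0.333, the smallest that 2 samples against 2 allow. The first batch gave -1.77 and the second batch -4.72 percentage points.

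From bait 2 the ESC libraries had 7.82%, 4.81% and 5.51%, and the NSC library 9.87% (95% Wilson interval 9.14% to 10.6%). The NSC library again lay above every ESC library, and the difference was -3.82 percentage points from the ESC mean and -2.05 from the linked ESC replicate 1. From the CTCF bait, whose region begins beside the interval, the ESC libraries had 19.1% and 16.3% and the NSC library 19.0% (18.2% to 19.8%), so the NSC value lay between the ESC values. The shares of these baits, with a single NSC library each, were not tested.

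The direction from bait 1 depended on the denominator. With all UMIs on chromosome 9 beyond 10 kb as the denominator, the interval held 5.18% ± 0.261 in ESC and 5.04% ± 0.205 in NSC (SD over 2 samples each), a difference of 0.135 percentage points in the opposite direction (exact permutation p = 0.667). The region itself took 54.3% to 69.9% of the chromosome's UMIs in the bait 1 ESC libraries and 41.4% to 45.0% in NSC. The CTCF bait changed its order as well: on this denominator the ESC libraries had 12.2% and 12.0%, both above the 10.9% of the NSC library. Bait 2 kept its direction, with 4.32%, 3.29% and 3.76% in ESC and 5.01% in NSC, and its difference was -1.22 percentage points. Depth moved with the region share in ESC. The shares of 9.23%, 7.36%, 8.26% and 9.08% from bait 1 came with 28164, 7261, 13775 and 28055 UMIs, those of 7.82%, 4.81% and 5.51% from bait 2 with 21866, 7172 and 7425 UMIs, and those of 19.1% and 16.3% from the CTCF bait with 51412 and 7666 UMIs. In NSC, the bait 1 pair with 23766 and 24687 UMIs had 10.9% and the library with 19410 UMIs 12.5%. The part of depth in the comparisons was not tested.

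The separation of the cell types was also lost when each listed end was counted once in place of its UMIs. A GATC site allows few ends, so this count nears a ceiling close to the bait. From bait 1, the 10 kb window at 100600001 had 38 listed ends in both ESC replicate 1 and ESC replicate 2, on 415 and 171 UMIs. The part of this ceiling, and so of depth, in the comparison was not tested. ESC replicates 1 to 4 of bait 1 then had 18.6%, 12.1%, 15.8% and 18.6% of the region's ends in the interval, and NSC replicates 1 to 3 had 16.9%, 17.3% and 16.5%. ESC replicates 1 and 4 thus lay above every NSC library, and the difference was -0.73 percentage points (exact permutation p = 1). For bait 2 the linked ESC replicate 1 had 15.6% and the NSC library 15.1%, with ESC replicates 2 and 3 at 8.06% and 9.33%.

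**Figure D1:**
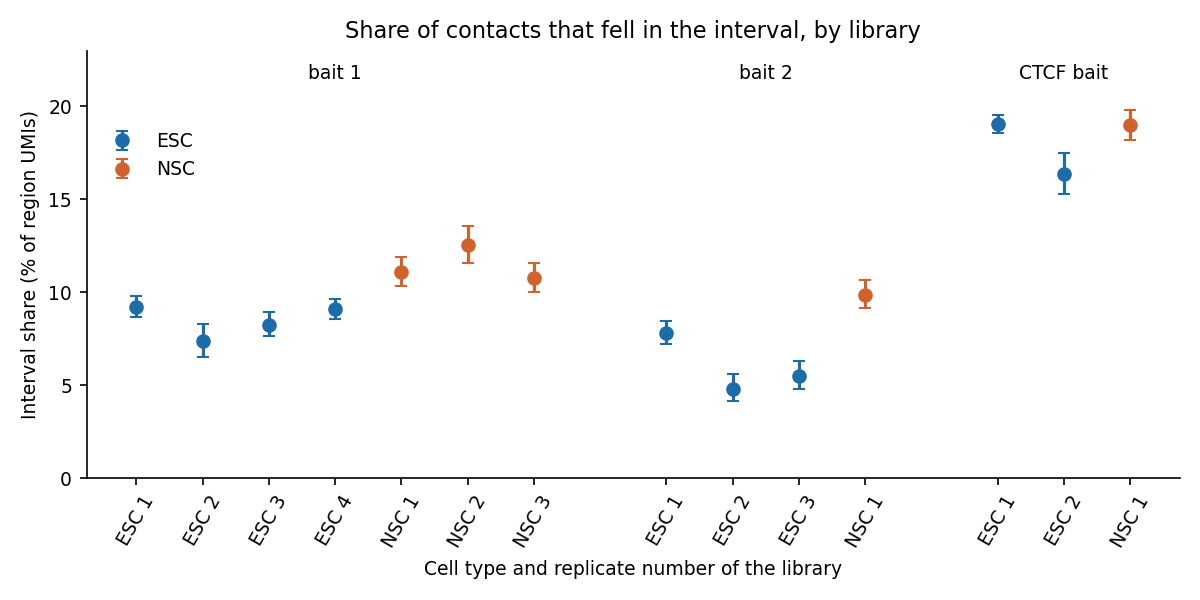
Percentage of region UMIs (10 kb to 1 Mb from the bait) that fell in the interval, for each of the 14 libraries by bait, cell type and replicate number, with 95% Wilson intervals as bars. ESC libraries of bait 1 sit between 7.36% and 9.23% and NSC libraries between 10.8% and 12.5%, an order that other ways of counting do not keep, and the CTCF bait libraries overlap.

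Whatever the cell type, the interval was contacted less than its distance from each bait would give. The expected count was taken from a quasi-Poisson curve on distance fitted to all windows of a library on both sides of the bait, with the number of GATC sites as an offset. Observed over expected was 0.530, 0.503, 0.534 and 0.521 in ESC replicates 1 to 4 of bait 1 and 0.574, 0.633 and 0.548 in NSC replicates 1 to 3. It was 0.498, 0.385 and 0.424 in the ESC libraries of bait 2 and 0.510 in its NSC library. The CTCF bait gave 0.553 and 0.468 in ESC and 0.575 in NSC. All 14 libraries thus lay between 0.385 and 0.633, and the counting intervals reached at most 0.688. With each listed end counted once the values were higher, 0.566 to 0.703 from bait 1, 0.446 to 0.652 from bait 2 and 0.572 to 0.883 from the CTCF bait, the last in its ESC replicate 1, and still below 1 in all 14 libraries. Between the cell types the log2 value differed by -0.19 (ESC minus NSC) from bait 1 (exact permutation p = 0.333, the smallest possible) and by -0.24 from bait 2 and -0.18 from the CTCF bait, not tested. The first batch of bait 1 gave -0.09 and the second -0.29, and bait 2 gave -0.0339 against its linked ESC library alone. Single libraries moved these values: bait 1 gave -0.10 without NSC replicate 2, bait 2 -0.15 without ESC replicate 2, and the CTCF bait -0.30 without ESC replicate 1 and -0.0580 without ESC replicate 2. For bait 2 the difference was -0.14 with ends outside repeats only and -0.36 with a curve on log distance alone. With the other side of the bait as expectation the differences were -0.38, -0.49 and -0.40 in the order of bait 1, bait 2 and the CTCF bait. With each end counted once the differences were -0.0358 for bait 1 (exact permutation p = 1), -0.23 for bait 2 and -0.0377 for the CTCF bait.

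A comparison that used no fitted curve gave a lower value still. Contacts per GATC site in the interval were set against those at the same distances on the other side of the bait, a span that for bait 1 is chr9:100799978-101339977, in and beyond the Stag1 gene body. The ratio was 0.400 as a mean over 4 bait 1 samples (0.337 to 0.499), 0.291 over 4 bait 2 samples (0.224 to 0.376) and 0.331 over 3 CTCF bait samples (0.266 to 0.398). The interval was the lower side in every sample. An exact sign-flip permutation over samples gave p = 0.125 for each Stag1 bait and p = 0.25 for the CTCF bait, the smallest that these numbers allow. In ESC replicate 1 of bait 1, 922 UMIs fell on the interval side and 2445 on the other, and in ESC replicate 1 of the CTCF bait 4718 and 12948.

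The shortfall did not hold for the stretches on either side of the interval when seen from the Stag1 baits. The 240 kb before the interval (chr9:99660001-99900000, with Cldn18, a tight junction gene, and Sox14) had an observed over expected of 1.27 ± 0.0471 in ESC and 1.28 ± 0.0479 in NSC from bait 1 (SD over 2 samples each), although it lies farther away. The 140 kb between the CTCF bait and the start of Stag1 (chr9:100460001-100600000) had 1.10 ± 0.0403 in ESC and 1.22 ± 0.0109 in NSC, beside 0.522 ± 0.00497 and 0.597 ± 0.0504 in the interval. From bait 2 the stretch before the interval had 1.46 ± 0.0370 (SD, n = 3) in ESC and 1.37 in NSC, against 0.436 ± 0.0574 and 0.510 in the interval. The interval was lower than either neighbour in 4 of 4 samples from each Stag1 bait, with mean log2 differences of -1.19 ± 0.15 and -1.06 ± 0.09 (SD, n = 4, bait 1) and -1.67 ± 0.22 and -1.52 ± 0.18 (SD, n = 4, bait 2) against the stretch before it and the stretch after it. Each exact sign-flip p was 0.125, the smallest possible.

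Contacts were also lower just inside the interval than just past the CTCF bait. The last 60 kb of the interval had an observed over expected of 0.566 ± 0.00928 in ESC and 0.774 ± 0.0599 in NSC from bait 1 (SD, n = 2), and the first 60 kb past the CTCF bait 0.897 ± 0.0442 and 1.10 ± 0.0164. The log2 difference between these neighbours was -0.58 ± 0.12 over 4 samples of bait 1 and -0.63 ± 0.13 over 4 samples of bait 2, with the interval side lower in all of them (exact sign-flip p = 0.125 each, the smallest possible). The 20 kb left out between these stretches (chr9:100440001-100460000), with the CTCF bait in them, had 1.03 ± 0.154 in ESC and 1.30 ± 0.0201 in NSC from bait 1, and 1.06 ± 0.294 (n = 3) in ESC and 2.10 in NSC from bait 2.

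In windows of 10 kb the rise did not begin at the CTCF bait in every library. From bait 1 in ESC, UMIs per GATC site in the 10 kb after the interval, before the bait is reached, were 1.77 to 2.73 times those in its last 10 kb, and the next window, with the bait in it, had 0.810 to 1.01 times as many as that one. In NSC these ratios were 0.873 to 1.20 and 1.21 to 1.38, and the window after the bait had 1.47 to 1.60 times as many as the bait's own, against 1.00 to 1.36 times in ESC. From bait 2 the first ratio was 1.34, 1.88 and 0.474 in the ESC libraries and 2.45 in NSC, the second was 1.31 or more in each ESC library and 1.07 in NSC, and the third was 1.16 and 2.07 in ESC replicates 1 and 3, below 1 in ESC replicate 2 and 1.20 in NSC. The order of the cell types in the first and second ratio from bait 1 was thus not the order from bait 2, and none of these differences was tested.

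**Figure D2:**
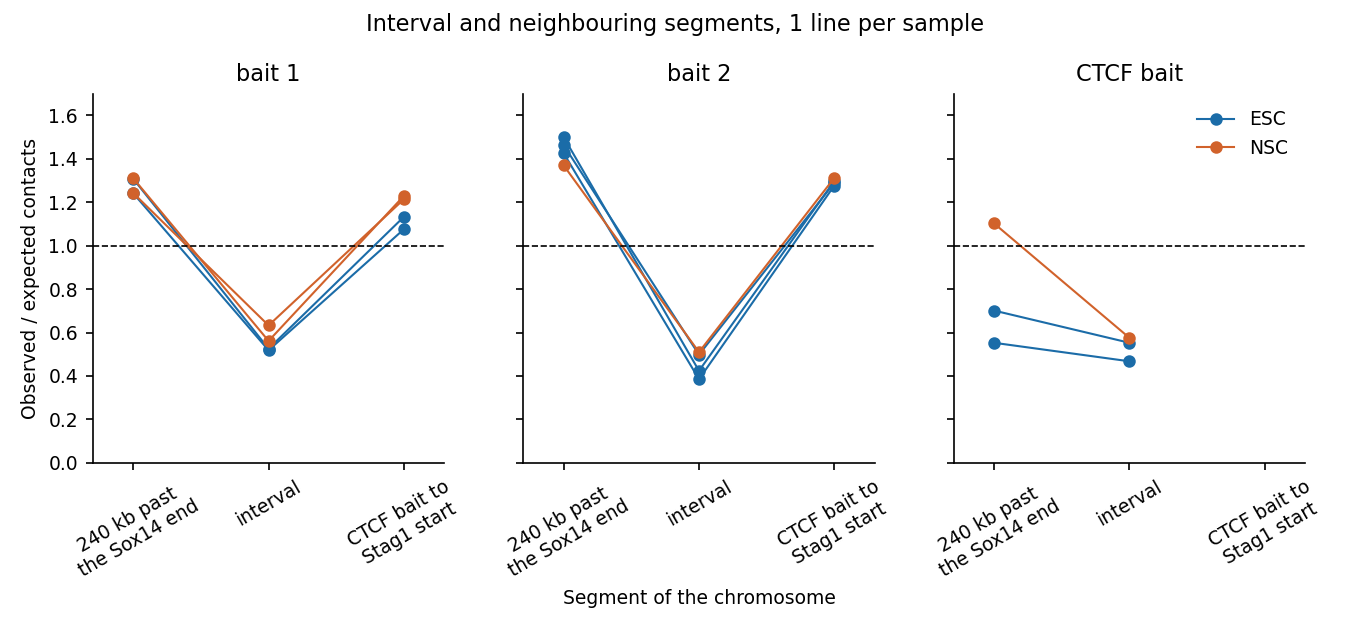
Observed over expected contacts (vertical axis, dashed line at 1) in the 240 kb before the interval, in the interval and in the 140 kb from the CTCF bait to the start of Stag1, with 1 line per sample and 1 panel per bait. From baits 1 and 2 every line drops to between 0.385 and 0.633 in the interval and lies above 1 on either side.

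Seen from the CTCF bait, the stretch before the interval was contacted less in ESC than in NSC. It had an observed over expected of 0.553 and 0.701 in the ESC samples and 1.10 in the NSC sample, while the interval had 0.468 and 0.553 in ESC and 0.575 in NSC. Without a fitted curve, contacts per GATC site before the interval were 0.574 to 0.900 times those inside it in all 7 ESC samples of the 3 baits, and 1.07 to 1.20 times in all 4 NSC samples. In NSC, then, the farther stretch was contacted more per site than the nearer interval from every bait. From bait 1 the mean ratio was 0.792 ± 0.124 in ESC and 1.13 ± 0.0912 in NSC (SD, n = 2 each, exact permutation p = 0.333, the smallest possible). For bait 2 and the CTCF bait this was not tested.

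Inside the interval, contacts fell with distance from every bait. The decay exponent is the slope of log contacts per site on log distance over the 27 windows of 20 kb, so that a lower value means a steeper fall. From bait 1, at distances of 179989 to 719988 bp, it was -1.10, -1.28, -1.28 and -1.07 in ESC replicates 1 to 4 and -0.999, -0.89 and -1.04 in NSC replicates 1 to 3, with standard errors of 0.14 to 0.23. The ESC mean of -1.18 ± 0.14 (SD, n = 2) and the NSC mean of -0.95 ± 0.09 (SD, n = 2) differed by -0.23, with an exact permutation p of 0.333. The first batch gave -0.07 and the second -0.40. With each end counted once, ESC replicates 1 and 4 (-0.84 and -0.85) had a shallower fall than NSC replicates 1 and 3 (-0.88 and -0.90), and the difference was -0.18 (exact permutation p = 0.667).

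From bait 2, at 201698 to 741697 bp, the exponents were -1.34, -1.64 and -1.64 in ESC and -1.10 in NSC. The NSC library had the shallowest fall, with a standard error of 0.17, and ESC replicate 1, which is linked to it, the nearest value. The CTCF bait, at 15377 to 555376 bp, gave -0.69 and -0.83 in ESC and -0.72 in NSC, with the NSC value between the ESC values. With each end counted once these became -0.20, -0.62 and -0.40. The baits see the interval over different distances, so their exponents are given side by side and were not tested against each other.

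**Figure D3:**
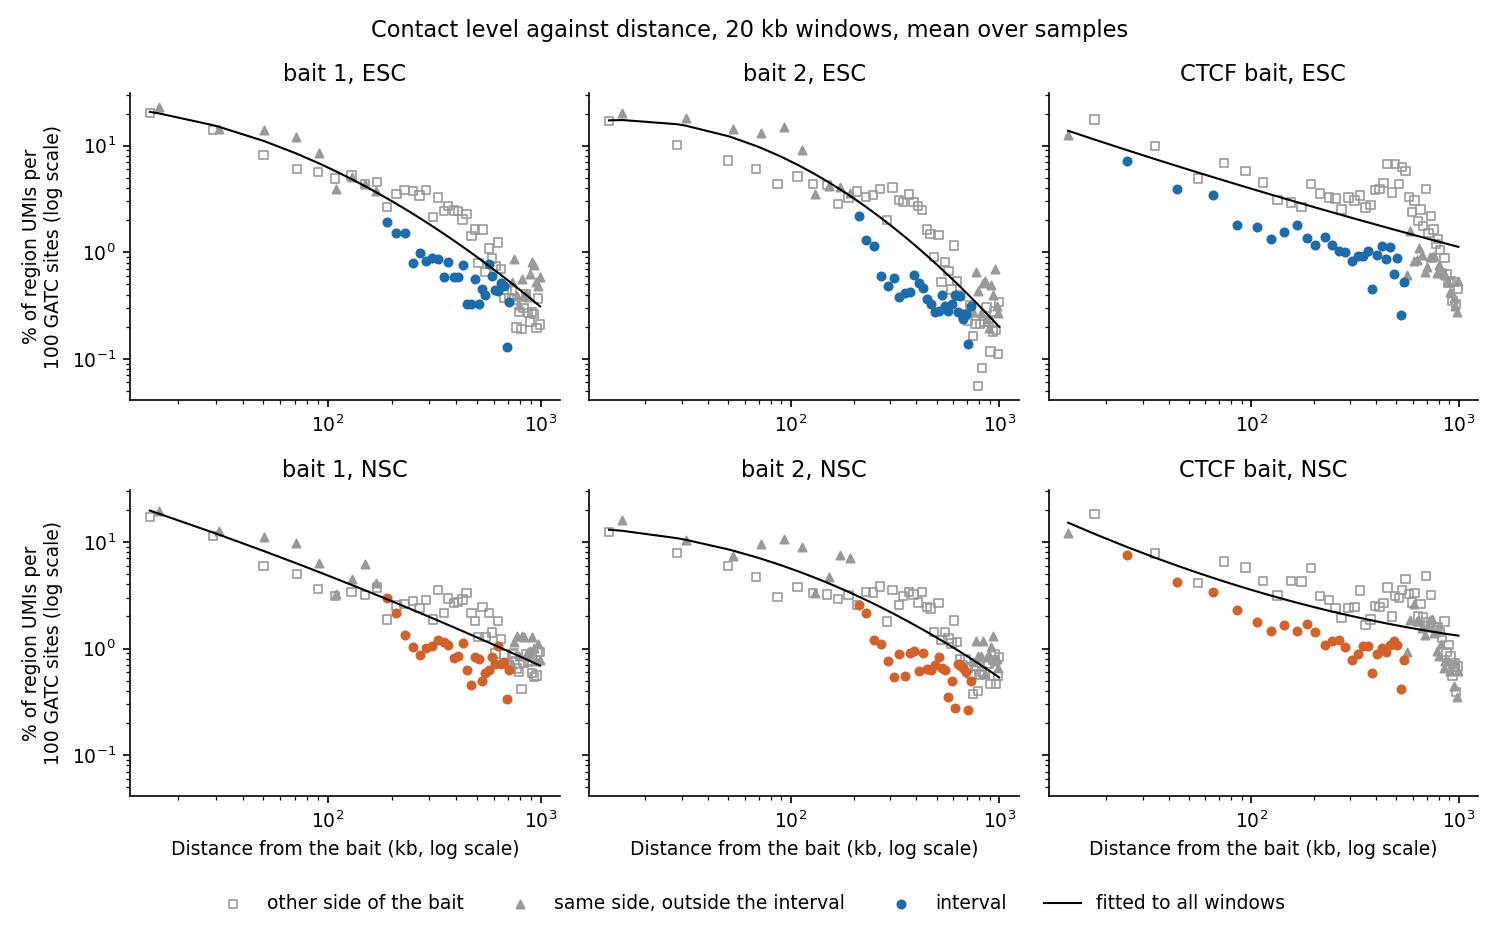
Contacts per 100 GATC sites, as a percentage of region UMIs, against distance from the bait in 20 kb windows (both axes logarithmic), as means over samples for each bait and cell type. Filled circles are the 27 windows of the interval (blue in ESC, orange in NSC), triangles the other windows on the same side, squares the windows on the other side and the line the fitted expectation. Group means lie below the line in 25 to 27 of the 27 windows, depending on bait and cell type.

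No stretch of 60 kb in the interval reached the expectation from any bait. In 60 kb windows from bait 1, observed over expected in ESC was 0.544 in the window nearest Sox14, 0.731 and 0.786 in the next pair, 0.506, 0.418, 0.507, 0.470 and 0.410 in the following 5 and 0.557 in the window nearest the CTCF bait. NSC had 0.560, 0.770, 0.587, 0.560, 0.501, 0.576, 0.631, 0.458 and 0.786 in the same order. From bait 2 the lowest 60 kb windows in ESC were those at 100260001 and 100320001, with 0.279 ± 0.0999 and 0.282 ± 0.0877 (SD, n = 3). For the CTCF bait the values ran from 0.332 to 0.705 in ESC and from 0.446 to 0.762 in NSC, with the window nearest Sox14 lowest and the one nearest the bait highest in both cell types.

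In 20 kb windows, group means were below the expectation in 26 of 27 windows in ESC and 25 of 27 in NSC from bait 1, and in 27 of 27 in each cell type from the other baits. The window with the highest value was the last of the interval, which starts at 100420001, from the CTCF bait in ESC (0.804 ± 0.105, n = 2) and NSC (0.833), from bait 1 in NSC (1.02 ± 0.0211, n = 2) and from bait 2 in NSC (0.835). From bait 1 in ESC the highest was chr9:100040001-100060000 with 1.04 ± 0.0609 (n = 2), beside 0.557 ± 0.0930 (n = 2) in NSC, and from bait 2 in ESC chr9:99980001-100000000 with 0.817 ± 0.149 (n = 3). The lowest were chr9:100140001-100160000 from bait 1 in NSC (0.337 ± 0.0290), chr9:100300001-100320000 from bait 2 in ESC (0.241 ± 0.101) and chr9:100320001-100340000 from bait 2 in NSC (0.256). Counts behind these are small, with 1 to 76 UMIs per window and sample from the Stag1 baits and 7 to 512 from the CTCF bait.

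The lowest window from the CTCF bait in both cell types, and from bait 1 in ESC, was chr9:99920001-99940000. Its observed over expected was 0.163 ± 0.00872 (n = 2) in ESC and 0.256 in NSC from the CTCF bait, and 0.219 ± 0.0924 (n = 2) in ESC and 0.353 ± 0.0639 (n = 2) in NSC from bait 1. It had the most GATC sites of the 27 windows (69), the highest repeat content (68.1%, median 26.6%) and the lowest share of possible ends that were listed in any library (42.8%, median 89.3%). Counting only ends at sites with no repeat-masked base within 50 bases, 11 sites remained in it and the CTCF bait libraries had 0.439 and 0.609 in ESC and 0.881 in NSC. From bait 1 it stayed low in ESC, with 0.263, 0, 0 and 0.258 in replicates 1 to 4, beside 0.729, 0.797 and 0.847 in NSC, on 0 to 6 UMIs per library. Bait 2 gave 0.854, 0 and 1.43 in ESC and 0.828 in NSC, on 0 to 5 UMIs. Over the whole interval the same restriction, added after seeing the data, left 509 sites and gave 0.413 to 0.675 in the 14 libraries.

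Across the 27 windows, the mean observed over expected of the 6 bait and cell type groups had a Pearson r of -0.57 with the number of GATC sites, -0.45 with repeat content, 0.52 with the share of ends listed and 0.17 with the content of G and C (Spearman rho -0.45, -0.29, 0.32 and 0.10). Profiles from different baits had r between 0.30 and 0.67, and those of ESC and NSC from the same bait between 0.50 and 0.77. These are descriptions over neighbouring windows that share libraries, sites and repeats. The number of GATC sites also enters the expectation, and the share of ends listed comes from the same UMIs. Neither of these features is therefore independent of observed over expected.

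**Figure D4:**
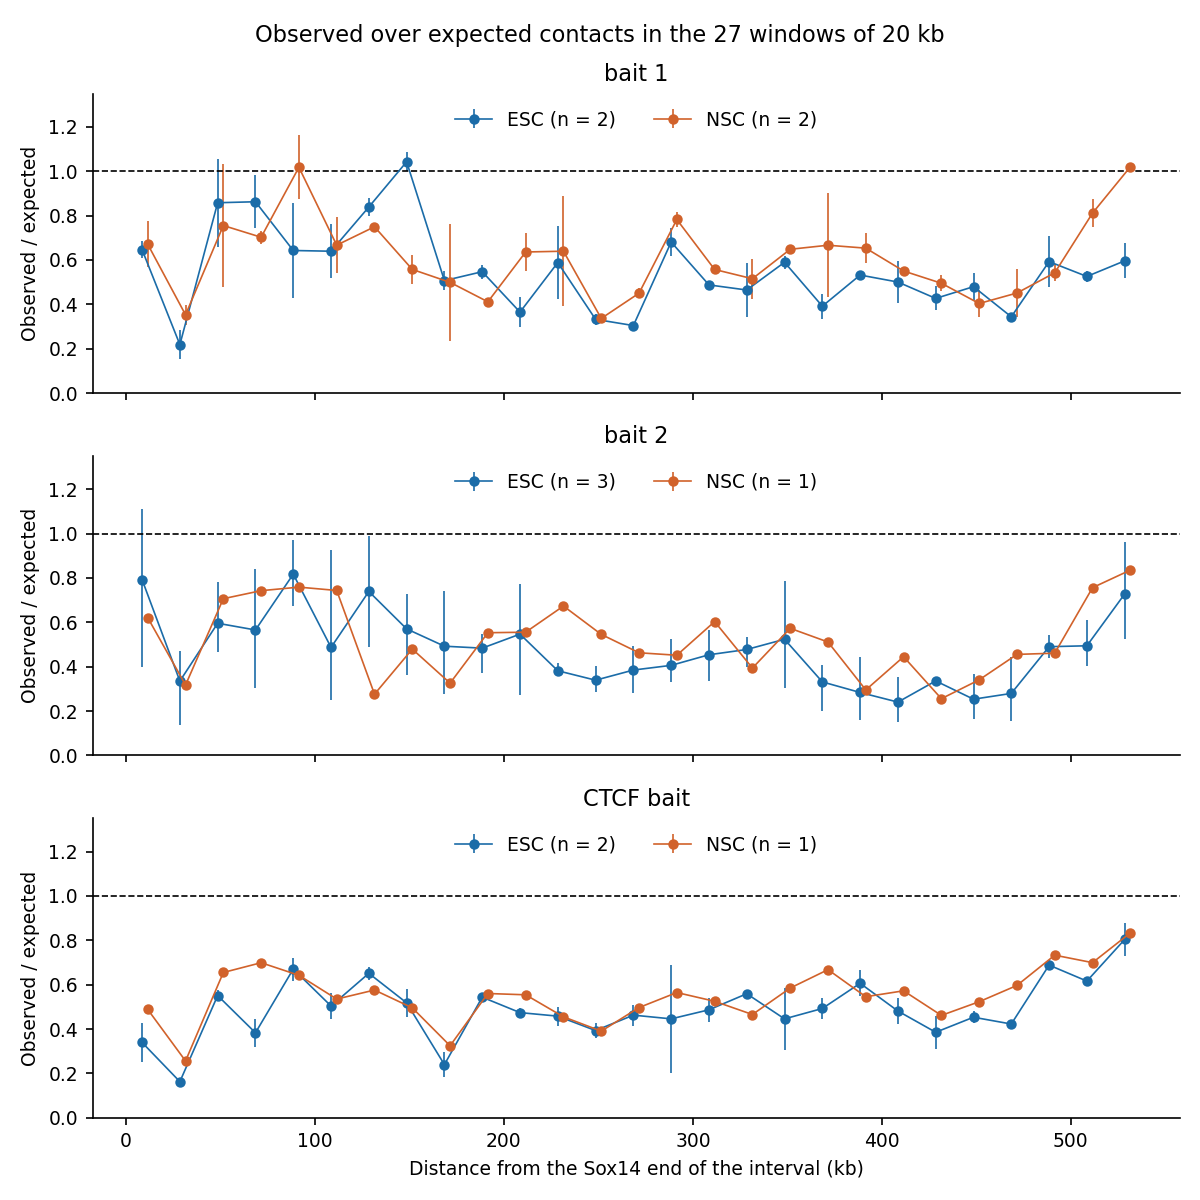
Observed over expected contacts in the 27 windows of 20 kb against distance from the Sox14 end of the interval, for the 3 baits, with points at the mean over samples and bars from the lowest to the highest sample (dashed line at 1). The second window, at 99920001, is the lowest from the CTCF bait (0.163 in ESC and 0.256 in NSC), and the last window is the highest (0.804 and 0.833).

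The windows that hold gene starts had an observed over expected between 0.256 and 0.858, all below 1. The window of 4930519F24Rik, chr9:100020001-100040000, had an observed over expected of 0.839 in ESC and 0.749 in NSC from bait 1, of 0.739 and 0.276 from bait 2 and of 0.651 and 0.576 from the CTCF bait. That of Gm28167, chr9:100320001-100340000, had 0.427 and 0.495 from bait 1, 0.336 and 0.256 from bait 2 and 0.386 and 0.462 from the CTCF bait. The window of 4930540E01Rik, chr9:100160001-100180000, had 0.304 and 0.450, then 0.385 and 0.463, and then 0.463 and 0.497 from the baits in the same order. All of these are long intergenic RNAs or, for the last, a transcript without protein-coding annotation. Gm34397, at chr9:100380001-100400000, had 0.592 and 0.542 from bait 1, 0.490 and 0.461 from bait 2 and 0.688 and 0.733 from the CTCF bait. The window of Gm23594 and Gm8641, chr9:99940001-99960000, had 0.858 and 0.755 from bait 1, 0.596 and 0.706 from bait 2 and 0.551 and 0.655 from the CTCF bait. That of Gm28267, chr9:100400001-100420000, had 0.526 and 0.811, 0.494 and 0.756, and 0.616 and 0.699.

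Letters from the core of the CTCF binding motif, AGGNGGCGC, were searched on both strands because the interval ends at a bait named for CTCF. They occurred 3 times, in 3 of 27 windows (11.1%), against 12.4% of 6058 windows of the whole chromosome. The matches are at 99906759 (minus strand), 100095695 (minus) and 100301741 (plus), printed with 10 flanking bases on their own strand and the match in capitals.
chr9:99906749-99906777, minus: ccacaaatgtAGGGGGCGCaatccccagg
chr9:100095685-100095713, minus: cagtgctggaAGGGGGCGCtggtagttaa
chr9:100301731-100301759, plus: ttgacagctgAGGTGGCGCccccatgtgg

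The 3 windows with a match had an observed over expected of 0.340, 0.544 and 0.481 in ESC from the CTCF bait, and of 0.488, 0.560 and 0.572 in NSC. They thus stayed inside the range of the other windows. The match nearest the CTCF bait lies outside the interval, at 100446162 on the plus strand.

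Single windows of the interval were then tested between the cell types, with ESC over NSC on the log2 scale and the region's UMIs as library size. All 27 held enough UMIs to be tested from each bait. From bait 1, edgeR's quasi-likelihood test with Benjamini-Hochberg adjustment called 25 of 100 windows of the region (25%), 9 higher in ESC and 16 higher in NSC, and 0 of the 27 windows of the interval, of which 6 had an unadjusted p under 0.05, and DESeq2 called 0 of them too. With the linked batches as a block, 0 of the 100 windows passed. Values were lower in ESC in 24 of the 27, with a median of -0.45 beside -0.45 over all 100 windows. The split of calls depended on the scaling: TMM factors gave 22 higher in ESC and 10 higher in NSC, chromosome-wide library sizes 18 and 6, and DESeq2 19 and 0. The median over all windows moved from -0.45 to -0.11, -0.01 and -0.04 under these, and that of the interval moved with it, to -0.11, -0.01 and -0.03. The number of interval windows lower in ESC fell from 24 to 19, 15 and 17.

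The 3 windows with the largest differences from bait 1 did not pass the test. The window chr9:99980001-100000000 held 0.173% ± 0.108 of region UMIs in ESC and 0.422% ± 0.0696 in NSC (SD, n = 2 each), a log2 difference of -1.08 ± 0.36 (SE, edgeR adjusted p = 0.0639). The window chr9:100100001-100120000 held 0.124% ± 0.0497 and 0.302% ± 0.0664, a difference of -1.07 ± 0.33 (edgeR adjusted p = 0.0573). In chr9:99920001-99940000, the repeat-rich window, the levels were 0.0885% ± 0.0510 and 0.233% ± 0.0325, and the difference was -1.06 ± 0.32 (edgeR adjusted p = 0.0538). Every ESC sample lay below every NSC sample in each of these windows, but they were picked for their large differences, so this order adds no support. The windows held 3.5 to 25 UMIs per ESC sample and 9 to 29.5 per NSC sample. Over the other settings the differences ran from -1.47 to -0.38, -1.19 to -0.55 and -1.32 to -0.52 in the order above, smallest with each end counted once. They passed in 3, 3 and 4 of 18 settings, among them the 7 libraries as replicates and the replicate block. Both of these count repeat libraries as separate samples.

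Pooled into 60 kb windows, 3 of the 9 windows of the interval passed from bait 1, all higher in NSC, beside 21 of 34 windows of the region (61.8%). They were the one nearest Sox14, which ends at 99960000 (0.494% in ESC and 0.915% in NSC, log2 difference -0.80 ± 0.36, edgeR adjusted p = 0.0496), the next, chr9:99960001-100020000 (0.707% and 1.21%, -0.67 ± 0.29, adjusted p = 0.0368), and the one nearest the CTCF bait, which starts at 100380001 (1.93% and 2.47%, -0.34 ± 0.13, adjusted p = 0.0211). Without ESC replicate 3, 0 of 100 windows of 20 kb passed anywhere in the region. Without ESC replicate 1 the interval had 1 window of 20 kb that passed, beside 24 of 100 over the region. Without ESC replicate 4 it had 3, with no count over the region set beside them here. All of these interval windows were higher in NSC.

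For bait 2 and the CTCF bait the fit assumes that the lone NSC library varies like the ESC libraries. From bait 2, edgeR called 5 of 100 windows (5%) and 0 of the 27 in the interval, where 25 values were lower in ESC (median -0.74, beside -0.76 over all windows) and 1 had an unadjusted p under 0.05. DESeq2 called 0 windows of the interval and Fisher's exact test on summed counts 6, beside 45 of 100 over the region (45%). With TMM factors the median over all windows was -0.27 and 19 windows of the interval were lower in ESC, and with DESeq2 -0.10 and 14. The largest difference, in chr9:99960001-99980000, was -1.54 ± 0.80 (SE), from 0.141% ± 0.0472 in ESC (n = 3) and 0.397% in the NSC library (edgeR adjusted p = 0.195). In chr9:100120001-100140000 it was -1.51 ± 0.82, from 0.111% and 0.331%, and in chr9:100140001-100160000 -1.26 ± 0.79, from 0.148% and 0.381%. Over the other settings these differences ran from -1.93 to -0.79, -1.66 to -0.84 and -1.68 to -0.61. Without ESC replicate 1, the library linked to the NSC library, 11 of the 27 windows passed, all higher in NSC, beside 53 of 100 over the region (53%).

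With the CTCF bait, edgeR called 13 of 101 windows (12.9%), 9 higher in ESC and 4 in NSC, and again 0 of the 27 in the interval, with 14 values lower in ESC, 13 higher and a median of -0.02. TMM factors gave 7 and 5 calls and chromosome-wide library sizes 4 and 6, with 8 and 7 of the 27 values lower in ESC. In edgeR 0 windows of the interval had an unadjusted p under 0.05, DESeq2 called 0 and Fisher's exact test on summed counts called 1 of the 27, beside 27.7% over the region. The window chr9:99960001-99980000 had the largest difference here as well as from bait 2, -0.79 ± 0.60 (SE), with 0.304% and 0.452% in the ESC libraries and 0.701% in NSC (edgeR adjusted p = 0.575). The next, chr9:99920001-99940000, had -0.65 ± 0.58 and the first window, which ends at 99920000, -0.42 ± 0.74. Over the other settings these values ran down to -0.39, -0.11 and -0.0505, with each end counted once.

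**Figure D5:**
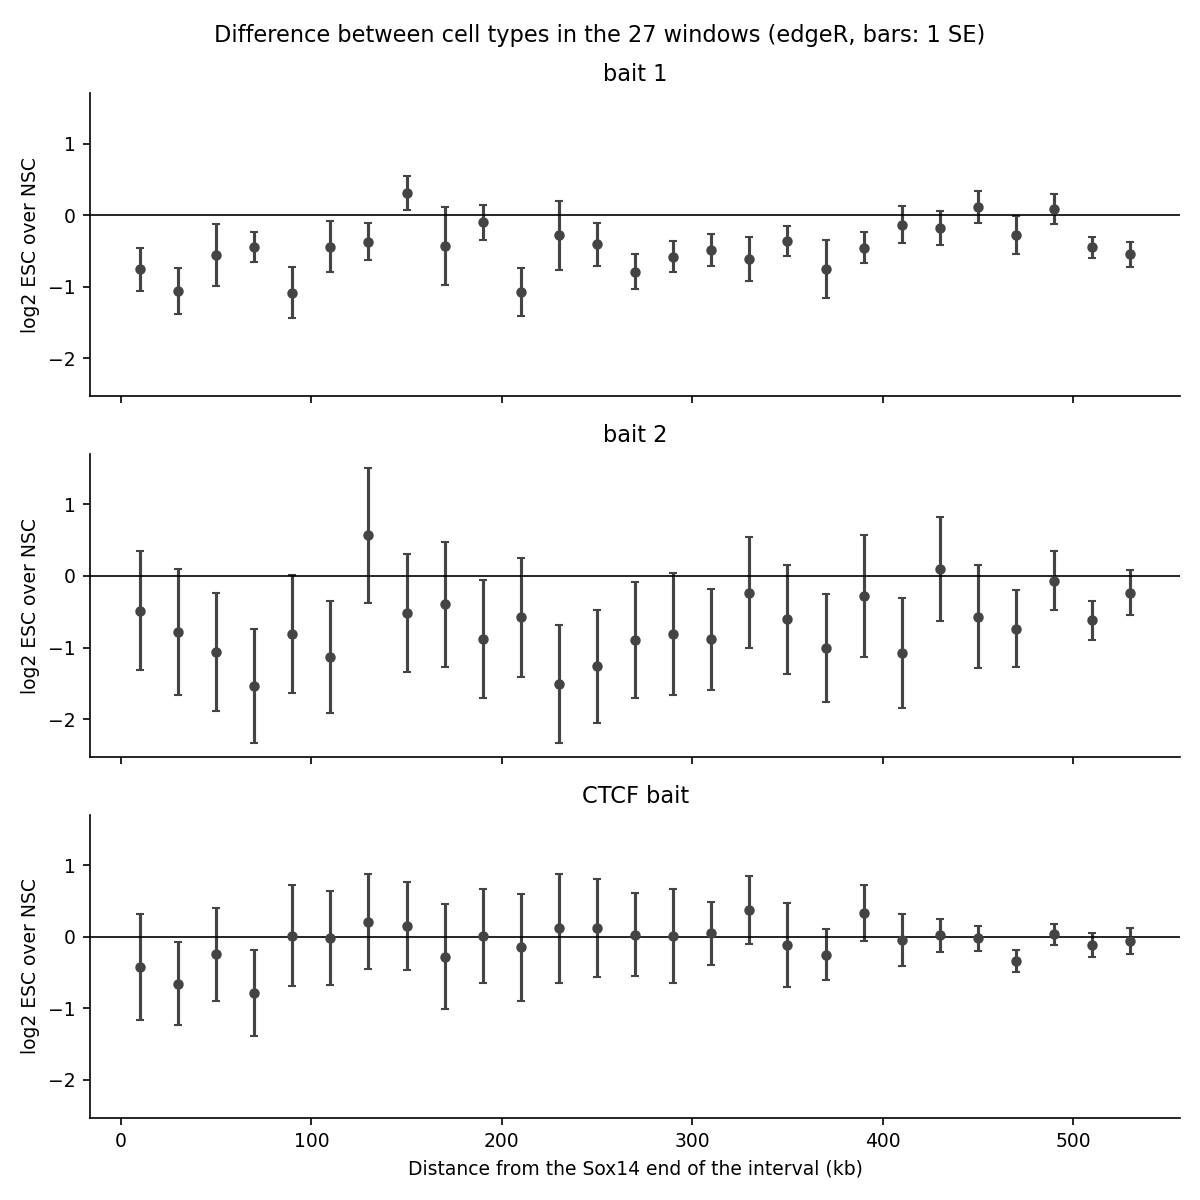
Log2 ratio of ESC over NSC in the 27 windows of 20 kb against distance from the Sox14 end of the interval, fitted by edgeR with region UMIs as library size (bars, 1 standard error), for the 3 baits. No window passed the adjusted threshold; 24 of 27 values lie below 0 from bait 1, 25 from bait 2 and 14 from the CTCF bait.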

How the data were processed

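The authors deposited 1 table of counts per library, whole numbers of UMIs per pair of restriction fragment ends, not normalised. Per the labels, the submitters' processing notes name Bowtie2 and mm10; the rule for collapsing UMIs and the filters are not given in the sources used here. The bait was the end with the most partners, and each pair, listed in both directions, was used once. All listed ends of chromosome 9 lay at GATC sites of GRCm38 p6, which gave coordinates, sequences and repeat masking (RefSeq assembly) and genes (GENCODE M21). Contact counts hold no marker expression against which the cell types could be checked. The interval, its windows and all lists were chosen with earlier results of these data known.

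Counts were summed in fixed windows of 20 kb (60 kb where stated). Repeat libraries were averaged, and non-whole averages rounded upward for the count model. Decay and expectation were quasi-Poisson fits per library (statsmodels 0.14.6). Windows with at least 10 UMIs were tested with edgeR 4.0.16 (limma 3.58.1, R 4.3.3) over the whole region, called at an adjusted p under 0.05; the fits were tested on simulated data. DESeq2 1.42.0 was an alternative. Group means were compared by exact permutation. Windows and ends named were those with the largest differences, the extreme observed over expected, gene starts, the first and last window, and the 3 ends with most UMIs per bait. Alternatives covered library size, filters, window width, the distance range, each end counted once, and libraries left out. Intervals and floors cover counting error only.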

Additional observations from a re-analysis of the deposited data

How the results depend on the processing

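Interval shares, decay exponents and observed over expected ratios and window tests were recomputed under other settings. Of these values, 201 kept their direction and side of the threshold or moved by less than the replicate spread. A further 33 passed a threshold they had missed, 6 moved by more and 7 changed sign. With 2 samples against 2 the bait 1 measures could not pass a threshold, and those of the other baits had no p-value. The 201 thus include values whose side was fixed in advance. They also include the bait 1 share difference with each end counted once. The share difference (ESC minus NSC, percentage points) turned to 0.135 for bait 1 and 1.24 for the CTCF bait with all UMIs of the chromosome as denominator, and became -1.22 for bait 2. With each end counted once it was -0.73 for bait 1 and 0.385 for the CTCF bait, and log2 observed over expected differed by -0.0358 and -0.0377. For the CTCF bait the share differed by -1.96 with a region of 800 kb and by 0.0519 with the linked ESC library only, and leaving out 1 library gave -2.65 to 0.0519. The CTCF decay exponent difference was 0.0298 with the linked ESC library only and -0.11 to 0.0298 without 1 library. With the linked ESC library only, bait 2 gave -2.05 (share), -0.24 (exponent) and -0.0339 (log2 observed over expected). With the other side of the bait as expectation, log2 observed over expected differed by -0.38 for bait 1, -0.49 for bait 2 and -0.40 for the CTCF bait. Taking each of the 7 bait 1 libraries as a replicate counts repeat libraries as separate samples. The share then differed by -2.98 and log2 observed over expected by -0.16 (exact permutation p = 0.0286 for each). In the interval 10 windows of 20 kb were called. Both results rest on this inflated number of samples. With chromosome-wide library sizes 1 window of the interval was called from bait 1 (chr9:100040001-100060000, higher in ESC), beside 24 of 100 over the region. In 60 kb windows 3 were called, beside 21 of 34. With averages rounded to the nearest even number (added after seeing the data) 1 was called, higher in NSC, beside 31 of 100. Without 1 library the interval had 0 to 3, beside 24 of 100 over the region without ESC replicate 1. From bait 2, Fisher's exact test called 6 windows, or 1 against the linked ESC library, and edgeR 0 to 11 without 1 library. Over the whole region, the bait 2 test against the linked ESC library called 19 of 100 windows. Fisher's exact test called 1 from the CTCF bait in either form, beside 28 of 101 over the region. The replicate block pairs libraries by number and so counts repeat libraries of 1 sample as separate samples. On this inflated number it called 6 windows from bait 1. Its share difference was -3.18 (exact sign-flip p = 0.25, the smallest possible). Over the whole region, where 25 windows were called from bait 1, the replicate block called 57, the 7 libraries 63, and counting each end once or blocking on linked libraries 0. From bait 2 TMM factors, chromosome-wide library sizes, 10 kb windows and each end counted once called 0, DESeq2 8 and Fisher's exact test 45, and from the CTCF bait DESeq2 and each end counted once called 0, 10 kb windows 3 and Fisher's exact test 28. Deviations of same-numbered ESC and NSC libraries of bait 1 correlated at -0.50, -0.23 and -0.08 over windows. This check gave -0.50 for the linked ESC 1 and NSC 1, and 0.60 for ESC 2 and NSC 1, which are not linked. It therefore cannot show whether the numbers pair the samples. The cause of the changes between settings was not tested. edgeR was not run for the CTCF bait without 1 ESC library, which leaves 1 against 1, and no replicate block could be fitted with 1 NSC library. Window counts went lowest from bait 2 in ESC, where a window of the interval could hold 1 UMI in a sample.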
